A study of Mus musculus with 2 samples.

Results

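Cyclic nucleotide phosphodiesterases were followed across the cell types of the adult mouse stria vascularis, the epithelium of the cochlear lateral wall that makes the endocochlear potential. The genes described are Pde4b, Pde4d, Pde1c, Pde1a, Pde7b, Pde3a, Pde10a, Pde8b and Pde5a, taken by symbol from the list of features of the count matrices. They are 9 of 24 genes listed with a Pde symbol and 9 of 48816 features, of which 25062 had a count in any barcode. All 9 were found, and all had counts in both libraries.

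The study isolated nuclei from pooled stria vascularis of CBA/J mice at P30 (postnatal day 30) and compared ways of preserving them. In the MethFix library the nuclei were fixed in methanol after isolation, and in the RNAlater library the dissected tissue lay overnight in RNAlater, an RNA stabilizing solution, before the nuclei were isolated. The paper names no genotype beyond the strain, and no treatment of the mice or genotype separates the groups. Mice were pooled, 10 of them for RNAlater and 5 to 6 for MethFix according to the labels (the methods give fewer for RNAlater), so that each method has 1 library and no replicate. Droplet capture by 10x Genomics gave the RNA of a nucleus its barcode and every captured molecule a unique molecular identifier (UMI).

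The 2 libraries do not stand as separate samples. The MethFix matrix held 4748 barcodes with 21027671 UMIs and the RNAlater matrix 3868 barcodes with 17681824 UMIs, and 3323 barcodes were in both. Of 2256 nuclei kept in both, 2129 received a class in both, and 2091 of these (98.2%) received the same class. Within these nuclei the counts ran in parallel between the libraries: across the 54 root-like nuclei named in both, Pde4b had 3545 UMIs in MethFix and 4214 in RNAlater, with r = 0.989 between the counts per nucleus. The same r was 0.947 for Pde4d over 664 marginal-like nuclei and 0.946 for Pde1c over 522 intermediate-like nuclei. Over 584 basal-like nuclei it was 0.796 for Pde4d, and 0.911 for Pde4b and 0.920 for Pde10a, which had fewer UMIs there. At 3 UMIs in each library it was -0.0216 for Pde10a in Reissner's membrane-like nuclei and 1.00 for Pde5a in root-like nuclei. The points share their depth, and the matrices hold counts and no UMI sequences, so whether the molecules are the same was not tested. Both libraries are therefore counted as 1 sample, no p-value is given, and their values are printed side by side. Intervals are exact 95% intervals (Poisson for UMIs, Clopper-Pearson for shares of nuclei) and cover counting error only.

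Marker genes named the clusters, which were made without the 9 phosphodiesterases, and each is called by its cell type with the suffix "like", which the plots leave out. Since these markers gave the names, their levels are no separate check of the names. In MethFix, Kcnq1, a potassium channel subunit, stood at 3110 CPM (counts per 1000000 UMIs of the class) in marginal-like nuclei. Dct, a melanin synthesis enzyme, stood at 21369 in intermediate-like nuclei, and Cldn11, a tight junction protein, at 1231 in basal-like nuclei. Lgr5 stood at 720 in root-like, Anxa1 at 2422 in spindle-like and Slc26a7 at 2181 in Reissner's membrane-like nuclei. Other listed markers set the classes apart less. Pmel, listed for intermediate cells, had 7 UMIs in intermediate-like nuclei of MethFix and 2 in those of RNAlater. The marginal marker Lrp2 stood at 6283 in marginal-like, 4650 in Reissner's membrane-like and 2620 in spindle-like nuclei of MethFix. MethFix gave 1086 marginal-like, 853 intermediate-like, 752 basal-like, 72 root-like, 97 spindle-like and 155 Reissner's membrane-like nuclei, and RNAlater gave 668, 522, 593, 56, 55 and 156. Median UMIs per nucleus of these classes ranged from 2272 to 4566 in MethFix and from 2952 to 6090 in RNAlater. In MethFix, 317 marginal-like, 297 intermediate-like, 136 basal-like, 4 root-like, 38 spindle-like and 11 Reissner's membrane-like nuclei carried a barcode that the RNAlater matrix did not hold.

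Phosphodiesterases hydrolyse the second messengers cAMP and cGMP to inactive monophosphates. The family members differ in which of the messengers they cleave and in what controls them, so that the set a cell transcribes shapes how long and where a cyclic nucleotide signal lasts. In the lateral wall, cAMP is best known as a regulator of marginal cell potassium secretion through the KCNQ1 and KCNE1 channel. PDE4B and PDE4D are cAMP-specific enzymes held near signalling complexes, PDE7B and PDE8B are further cAMP-specific enzymes, and PDE5A is specific for cGMP. PDE1A and PDE1C are activated by calcium and calmodulin and cleave both messengers, PDE3A is the cAMP enzyme that cGMP inhibits, and PDE10A cleaves both.

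The upstream sequence of the 3 genes that carry most of the counts is shown because each led a class, by UMIs or by UMIs per length, and each lies in a long gene. Pde4b lies on chr4:102087543-102607259 (plus strand, a span of 520 kb), Pde4d on chr13:108449948-109953461 (plus strand, 1504 kb) and Pde1c on chr6:56069804-56569103 (minus strand, 499 kb), all in GRCm38. RefSeq windows of 250 bases before a start site were available for 8 of the 9 genes. The motifs searched, on both strands, were 3: the cAMP response element core TGACG, which 17.8% of the 32851 windows hold, TCATGTG, a binding motif of the melanocyte factor MITF, held by 3.25%, and AAGGTCA, a binding motif of the orphan receptor ESRRB, held by 4.08%. Capitals in the windows mark a match, on the strand printed (5′ to 3′ in the direction of the gene, GRCm38.p6).
Pde4b, first of 4 start sites, chr4:102421305-102421554, plus strand, with the complement of the cAMP response element core: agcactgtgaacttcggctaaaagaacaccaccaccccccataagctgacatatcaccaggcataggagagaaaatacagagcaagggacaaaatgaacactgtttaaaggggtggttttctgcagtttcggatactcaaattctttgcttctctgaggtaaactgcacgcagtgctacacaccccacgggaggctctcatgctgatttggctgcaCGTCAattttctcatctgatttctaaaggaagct
Pde4d, the 1 start site in the RefSeq table, chr13:108653927-108654176, plus strand, with the MITF-type motif: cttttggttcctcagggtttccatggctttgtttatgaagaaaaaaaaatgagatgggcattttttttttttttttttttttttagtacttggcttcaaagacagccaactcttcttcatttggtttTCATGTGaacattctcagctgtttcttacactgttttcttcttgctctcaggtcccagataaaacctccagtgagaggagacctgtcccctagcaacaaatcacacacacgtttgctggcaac
Pde1c, first of 3 start sites, chr6:56362393-56362642, minus strand, with none of the 3 motifs: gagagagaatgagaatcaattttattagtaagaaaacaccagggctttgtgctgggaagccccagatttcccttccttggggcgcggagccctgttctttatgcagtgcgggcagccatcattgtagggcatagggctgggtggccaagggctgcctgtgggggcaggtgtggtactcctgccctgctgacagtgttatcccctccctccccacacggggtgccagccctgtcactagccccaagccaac
The windows at the other 3 start sites of Pde4b held none of the motifs, and none of the windows of the 8 genes held AAGGTCA. A match is a string of letters in the window and says nothing about binding.

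Root-like nuclei carried the highest summed level of the 9 genes, 27793 CPM in MethFix and 30050 in RNAlater. Spindle-like nuclei followed at 9461 and 9969, intermediate-like nuclei at 8668 and 9340, marginal-like nuclei at 3405 and 3501 and Reissner's membrane-like nuclei at 2194 and 2222. Basal-like nuclei had the lowest sum, 430 in both libraries. Which gene led also differed by class. Pde4d had the most UMIs in marginal-like, intermediate-like, basal-like, spindle-like and Reissner's membrane-like nuclei, and Pde4b in root-like nuclei.

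**Figure D1:**
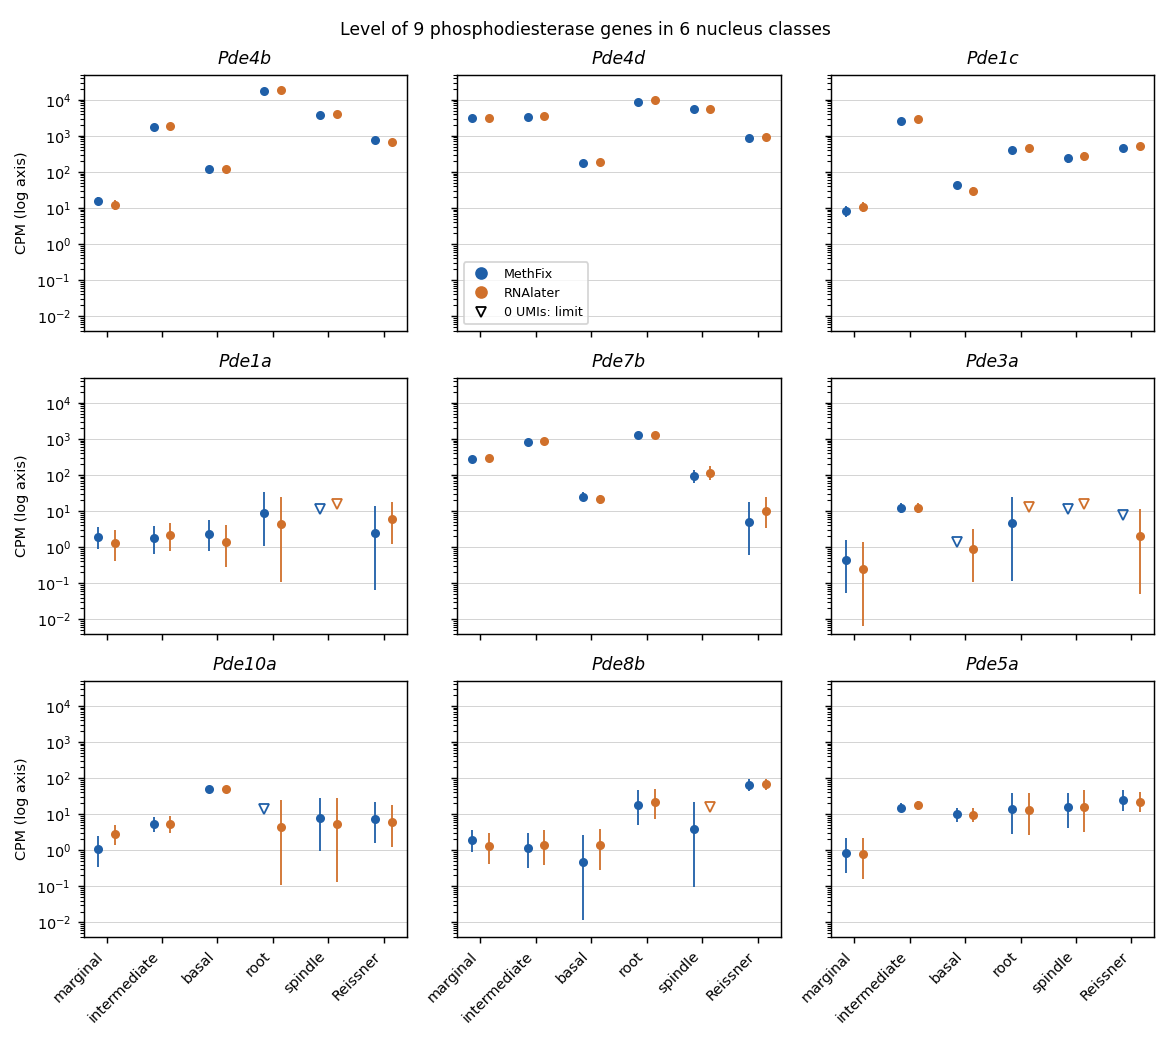
Level in CPM (log axis) of each phosphodiesterase in the 6 classes, 1 panel per gene, with MethFix and RNAlater side by side and exact 95% Poisson intervals as error bars. Open triangles mark classes with 0 UMIs, drawn at the level of 3 counts. Pde4b is highest in root-like nuclei (17550 and 18595), Pde1c in intermediate-like nuclei (2645 and 2906), Pde10a in basal-like nuclei (50.3 and 49.0) and Pde8b in Reissner's membrane-like nuclei (65.6 and 69.3).

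Pde4b, which encodes a cAMP-specific enzyme, spanned the widest range. Root-like nuclei of MethFix had 3874 UMIs, a level of 17550 CPM (95% interval 17002 to 18112), and those of RNAlater had 18595 CPM (18039 to 19165). Spindle-like nuclei stood at 3669 (3440 to 3908) and 4003 (3726 to 4295), intermediate-like nuclei at 1756 (1712 to 1802) and 1913 (1862 to 1964), and Reissner's membrane-like nuclei at 757 (674 to 848) and 675 (604 to 752). Basal-like nuclei stood at 120 (106 to 136) and 123 (109 to 139), and marginal-like nuclei at 15.9 (12.5 to 19.9) and 12.2 (8.98 to 16.2). The order of the 6 classes was the same in both libraries and no neighbours overlapped in counting error. Root-like nuclei exceeded spindle-like nuclei 4.78-fold (4.46 to 5.14) in MethFix and 4.65-fold (4.30 to 5.02) in RNAlater, and the MethFix level in root-like nuclei was 1106-fold that in marginal-like nuclei.

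At equal depth the share of nuclei with a Pde4b UMI followed the level. It was 98.6% of root-like nuclei in MethFix and 100% in RNAlater, and 98.5% and 100% after each nucleus was thinned to 1000 UMIs. In spindle-like nuclei it was 94.8% and 96.4%, or 89.0% and 88.7% thinned. In intermediate-like nuclei, which were deeper, it was 91.6% and 98.1%, the latter above the spindle-like share, or 72.9% and 74.5% thinned. In marginal-like nuclei, which had the highest median depth, it was 4.70% and 4.34%, or 1.83% and 1.50% thinned.

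Within the root-like class Pde4b varied between nuclei and between clusters. A root-like nucleus held a median of 44.5 Pde4b UMIs in MethFix (highest 209) and 71 in RNAlater (highest 220). MethFix split the class into 2 clusters. In the one led by Prss36, Epyc and Aox2 (38 nuclei), Pde4b stood at 10283 CPM (9673 to 10921), and in the one led by Rspo2, Map1b and Slc26a4 (34 nuclei) at 23917 (23041 to 24817). Pde4d differed less between these clusters, at 7567 (7045 to 8117) and 9366 (8821 to 9936). RNAlater held the class in 1 cluster, and 13 of the 72 MethFix root-like nuclei fell in unnamed clusters there. Of the MethFix root-like nuclei, the 4 whose barcode was absent from RNAlater had 6994 Pde4b CPM (5223 to 9172), and the other 68 had 17918 (17355 to 18496).

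Pde4d, the second cAMP-specific enzyme of its subfamily among the 9, was the most widely detected gene of the set, with 32369 UMIs in the kept nuclei of MethFix and 28362 in RNAlater. Root-like nuclei had 8526 CPM (8145 to 8920) in MethFix and, in RNAlater, 9630 (9231 to 10042). Spindle-like nuclei had 5434 (5156 to 5724) and 5563 (5236 to 5905), intermediate-like nuclei 3425 (3363 to 3488) and 3623 (3554 to 3694), and marginal-like nuclei 3092 (3042 to 3143) and 3173 (3118 to 3229). Reissner's membrane-like nuclei had 863 (774 to 960) and 924 (841 to 1013), and basal-like nuclei 178 (160 to 197) and 193 (175 to 213). The order was again the same in both libraries. The smallest step was that from intermediate-like to marginal-like nuclei, 1.11-fold (1.08 to 1.14) in MethFix and 1.14-fold (1.11 to 1.17) in RNAlater. After thinning to 1000 UMIs, Pde4d was detected in 88.2% and 88.8% of marginal-like, 94.2% and 95.6% of intermediate-like, 95.5% and 100% of root-like and 97.8% and 96.2% of spindle-like nuclei, against 16.3% and 18.2% of basal-like nuclei (29.9% and 40.1% before thinning).

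By UMIs, root-like and spindle-like nuclei differed in which of the PDE4 genes was ahead, while per kb of gene span Pde4b was ahead in both (in spindle-like nuclei 7.06 and 7.70 CPM per kb, against 3.61 and 3.70 for Pde4d). In root-like nuclei Pde4b had 2.06 times (1.95 to 2.18) the UMIs of Pde4d in MethFix and 1.93 times (1.83 to 2.03) those in RNAlater, and Pde4b exceeded Pde4d in 53 of 72 nuclei (73.6%) and in 43 of 56 (76.8%). In spindle-like nuclei Pde4d had 1.48 times (1.36 to 1.61) and 1.39 times (1.27 to 1.53) the UMIs of Pde4b, and was ahead in 67 of 97 nuclei (69.1%) and in 32 of 55 (58.2%). Pde4b held 63.1% and 61.9% of the UMIs of the 9 genes in root-like nuclei, and Pde4d 57.4% and 55.8% in spindle-like nuclei. Both genes were found together in 69 of the 72 MethFix and in all 56 RNAlater root-like nuclei. Pde7b, the other cAMP-specific gene with a sizeable level, separated these classes further, being 13.3-fold higher (8.79 to 20.8) in root-like than in spindle-like nuclei of MethFix and 11.6-fold higher (7.50 to 18.7) in RNAlater.

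**Figure D2:**
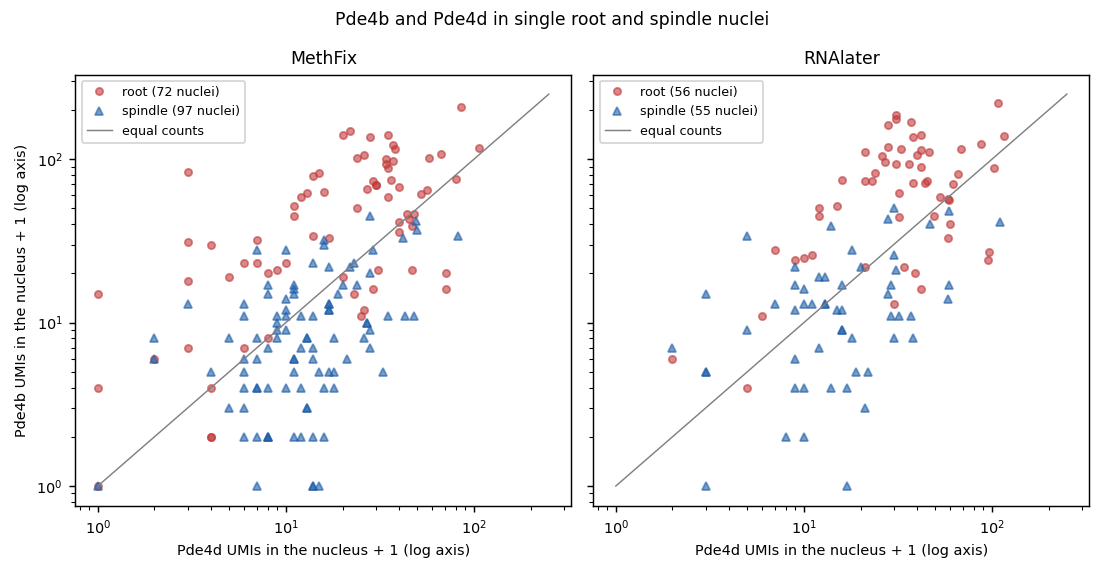
Pde4b UMIs (vertical) against Pde4d UMIs (horizontal, both plus 1 on log axes) in single root-like (circles) and spindle-like (triangles) nuclei, 1 panel per library, with the line of equal counts. Most root-like nuclei lie on the Pde4b side of the line (53 of 72 in MethFix, 43 of 56 in RNAlater) and most spindle-like nuclei on the Pde4d side (67 of 97 and 32 of 55).

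Pde1c, the calcium and calmodulin activated enzyme, was a gene of intermediate-like nuclei. These pigmented cells had 2645 CPM (2591 to 2701) in MethFix and, in RNAlater, 2906 (2843 to 2969). Reissner's membrane-like nuclei came next, at 467 (402 to 539) and 508 (447 to 575), and root-like nuclei at 408 (328 to 501) and 466 (382 to 564), which did not differ from them beyond counting error (1.15-fold, 0.886 to 1.49, and 1.09-fold, 0.864 to 1.38). Spindle-like nuclei had 236 and 269, basal-like nuclei 43.7 and 30.0, and marginal-like nuclei 8.15 and 10.9. The marginal-like level of Pde1c in MethFix was 0.308% of the intermediate-like level, and the same ratio was 1.70% for Dct and 0.442% for the melanin synthesis enzyme Tyr, both markers of intermediate cells. The share of nuclei with a Pde1c UMI was 96.2% and 99.6% in intermediate-like nuclei, or 86.2% and 89.5% thinned, and 3.04% and 5.39% in marginal-like nuclei, or 1.06% and 1.50% thinned.

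Intermediate-like nuclei carried Pde4d, Pde1c, Pde4b and Pde7b side by side. Pde4d was ahead of Pde1c by 1.29-fold (1.26 to 1.33) in MethFix and 1.25-fold (1.21 to 1.28) in RNAlater, an order that turned per kb of gene span (log2 -1.22 and -1.27). The median number of the 9 genes detected in a nucleus was 4 in both libraries, and Pde4d and Pde1c were found together in 810 of 853 and 520 of 522 nuclei. Pde4d exceeded Pde1c in 539 of 853 nuclei (63.2%) and in 336 of 522 (64.4%). In MethFix, the cluster led by Taf1d, Dct and Phlda1 (212 nuclei) was lower in both, with Pde1c at 1621 CPM (1516 to 1731) and Pde4d at 2290 (2166 to 2421), than the cluster led by Pax3 (300 nuclei), with 3175 (3077 to 3276) and 3416 (3314 to 3521). Intermediate-like nuclei whose barcode was in MethFix alone had a Pde1c level of 1824 (1730 to 1923), against 2886 (2821 to 2952) for those in both matrices, and their median depth was 2297 UMIs against 4634.

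Pde7b, a cAMP-specific enzyme, was highest of the 6 classes in root-like nuclei, at 1264 CPM (1120 to 1421) in MethFix and, in RNAlater, 1315 (1170 to 1473). Intermediate-like nuclei had 806 and 860, and marginal-like nuclei 283 and 298. It was low in spindle-like nuclei (95.3 and 114), basal-like nuclei (25.2 and 21.3) and Reissner's membrane-like nuclei (5.05 and 10.2, from 2 and 5 UMIs), and the last 2 did not differ beyond counting error in RNAlater (2.09-fold, 0.836 to 6.74). Pde7b was the second gene of marginal-like nuclei, where Pde4d exceeded it 10.9-fold (10.3 to 11.6) and 10.6-fold (10.0 to 11.3). Marginal-like nuclei were thus the class most dominated by 1 of the 9 genes, with Pde4d at 90.8% and 90.6% of their UMIs and ahead of Pde7b in 1022 of 1086 nuclei (94.1%) and 659 of 668 (98.7%).

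Pde10a, an enzyme for both messengers best known from striatal neurons, was found mainly in basal-like nuclei among the 6 classes. There, 106 UMIs in MethFix gave 50.3 CPM (41.2 to 60.9) and 108 UMIs in RNAlater gave 49.0 CPM (40.2 to 59.2), against at most 7.63 and 6.12 in the 5 other classes. Root-like nuclei of MethFix had 0 UMIs, where the 95% interval reaches 16.7 CPM. The share of basal-like nuclei with a UMI was 7.85% and 9.61%, or 4.23% and 4.62% thinned, so that 59 and 57 nuclei carried all of these counts. The counts were uneven within the class. The basal-like cluster led by Col27a1 (231 nuclei in MethFix, 184 in RNAlater) stood at 99.6 (73.7 to 132) and 120 (92.4 to 153), and the other basal-like clusters at 33.8 and 38.6 in MethFix and between 16.8 and 30.0 in RNAlater. Pde4b moved with it, at 260 (217 to 309) and 249 (209 to 295) in the Col27a1 cluster against 77.2 to 77.6 and 53.2 to 98.8 in the others.

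Markers of neurons, fibrocytes and endothelial cells were also highest in basal-like nuclei among the 6 classes, but those of other cell types were not. Intermediate-like nuclei had the highest levels of pericyte (90.7 CPM in MethFix and 104 in RNAlater), bone cell (107 and 119) and ciliated cell markers (437 and 475). Schwann cell markers were highest in marginal-like nuclei (353 and 365), and basal-like nuclei did not lead in macrophage markers (6.65 and 5.90) either. The pericyte, bone cell, ciliated cell and Schwann cell sums came almost wholly from 1 gene each. In intermediate-like nuclei of MethFix, Cspg4 gave 275 of 307 pericyte, Alpl 336 of 361 bone cell and Cfap54 1468 of 1480 ciliated cell marker UMIs. In marginal-like nuclei of MethFix, Mbp gave 1594 of 1645 Schwann cell marker UMIs. The summed level of 5 neuron markers was 125 CPM in basal-like nuclei of MethFix and 137 in RNAlater, against 5.32 to 36.2 and 2.04 to 13.2 in the other classes. In MethFix 4 of the 5 had a UMI, Tubb3 was at 0, and Syt1, which encodes a synaptic vesicle protein, gave 254 of the 264 UMIs. Fibrocyte markers summed to 176 CPM in basal-like nuclei of both libraries, with all 4 detected, against 21.9 to 76.3 and 19.7 to 93.0 in the other classes, and endothelial markers to 39.4 and 44.9, with all 5 detected, against 2.96 to 18.1 and 7.38 to 10.3. The neuron-like nuclei of RNAlater had a marker level of 1027 and a Pde10a level of 263 (176 to 378), from 29 UMIs in 4 of 65 nuclei. Fibrocyte-like nuclei had marker levels of 7645 and 9348, Pde10a at 35.4 and 158 (3 and 10 UMIs) and Pde4b at 1593 and 1394. The part of such nuclei in the basal-like value was not tested.

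Pde8b, a cAMP-specific enzyme, was highest of the 6 classes in Reissner's membrane-like nuclei, at 65.6 CPM (42.9 to 96.2, 26 UMIs) in MethFix and, in RNAlater, 69.3 (48.0 to 96.9, 34 UMIs). The share of these nuclei with a UMI was 12.9% (8.06% to 19.2%) and 16.0% (10.6% to 22.7%), or 5.30% and 8.03% thinned. Root-like nuclei had 18.1 and 22.0, from 4 UMIs in 1 nucleus and 5 UMIs in 2 nuclei, and the other 4 classes had at most 3.81. Pde5a, the cGMP-specific enzyme, was low in all 6 classes, at 25.2 (12.1 to 46.4) and 22.4 (11.2 to 40.1) in Reissner's membrane-like nuclei, 15.1 and 17.6 in intermediate-like nuclei and 0.858 and 0.761 in marginal-like nuclei. The Pde5a levels of Reissner's membrane-like, intermediate-like, spindle-like, root-like and basal-like nuclei did not differ between neighbours in the order beyond counting error. Classes farther apart in the order were not compared with an interval. The Reissner's membrane-like level was 2.53-fold the basal-like level in MethFix and 2.35-fold in RNAlater.

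Pde3a and Pde1a were near the limit of the depth. Pde3a, the cGMP-inhibited enzyme, had 41 UMIs in intermediate-like nuclei of MethFix, a level of 12.1 CPM (8.70 to 16.4), and 35 UMIs in RNAlater, a level of 12.3 (8.56 to 17.1). The other 5 classes together gave no more than 4 UMIs in either library. Pde1a, the second calmodulin-activated gene, had at most 9 UMIs in any of the 6 classes. It had none in spindle-like nuclei, where the 95% interval reaches 14.1 CPM in MethFix and 19.1 in RNAlater. No neighbouring classes differed in Pde1a beyond counting error.

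The low end of the basal-like values cannot be told apart from free RNA, which droplets take up from lysed cells. Basal-like nuclei of MethFix held Pde4d at 5.74% of the marginal-like level, Pde7b at 8.90% of the marginal-like level and Pde4b at 6.84% of the intermediate-like level. Kcnq1, a marginal marker, stood in the same nuclei at 5.42% of its marginal-like level and Dct at 5.45% of its intermediate-like level, while the marginal marker Esrrb stood at 0.919% and Tyr at 1.03%. No member UMI was found in 375 of 752 basal-like nuclei (49.9%) in MethFix and in 246 of 593 (41.5%) in RNAlater. That Pde4d led basal-like nuclei, by 1.48-fold (1.26 to 1.74) over Pde4b in MethFix and 1.57-fold (1.35 to 1.84) in RNAlater, is given as a count only. In Reissner's membrane-like nuclei Pde4d exceeded Pde4b 1.14-fold (0.973 to 1.34) in MethFix, within counting error, and 1.37-fold (1.19 to 1.58) in RNAlater.

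The leader of a class depended on the scale for 4 of the 6 classes. Nuclear RNA includes unspliced transcripts, whose internal adenine stretches can be primed, and genes spanning over 100 kb took 38.9% of UMIs in MethFix and 40.3% in RNAlater. Pde4d spans 1504 kb, and the other members 130 to 520 kb. Per kb of gene span, Pde4d still led marginal-like nuclei (2.06 and 2.11 CPM per kb, against 0.865 and 0.912 for Pde7b) and Pde4b led root-like nuclei (33.8 and 35.8, against 5.67 and 6.40 for Pde4d). Pde1c led intermediate-like nuclei on that scale (5.30 and 5.82, against 3.38 and 3.68 for Pde4b). Pde4b led spindle-like nuclei (7.06 and 7.70, against 3.61 and 3.70 for Pde4d), basal-like nuclei (0.231 and 0.237, against 0.118 and 0.129 for Pde4d) and Reissner's membrane-like nuclei (1.46 and 1.30, against 0.935 and 1.02 for Pde1c). Per kb of exons, with 12.0 kb for Pde4d and 10.6 kb for Pde4b, the leaders were those of the plain UMIs. Which scale is closer to the number of transcripts was not tested. The use of the span scale depends on whether reads in introns were counted, which the methods do not state.

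**Figure D3:**
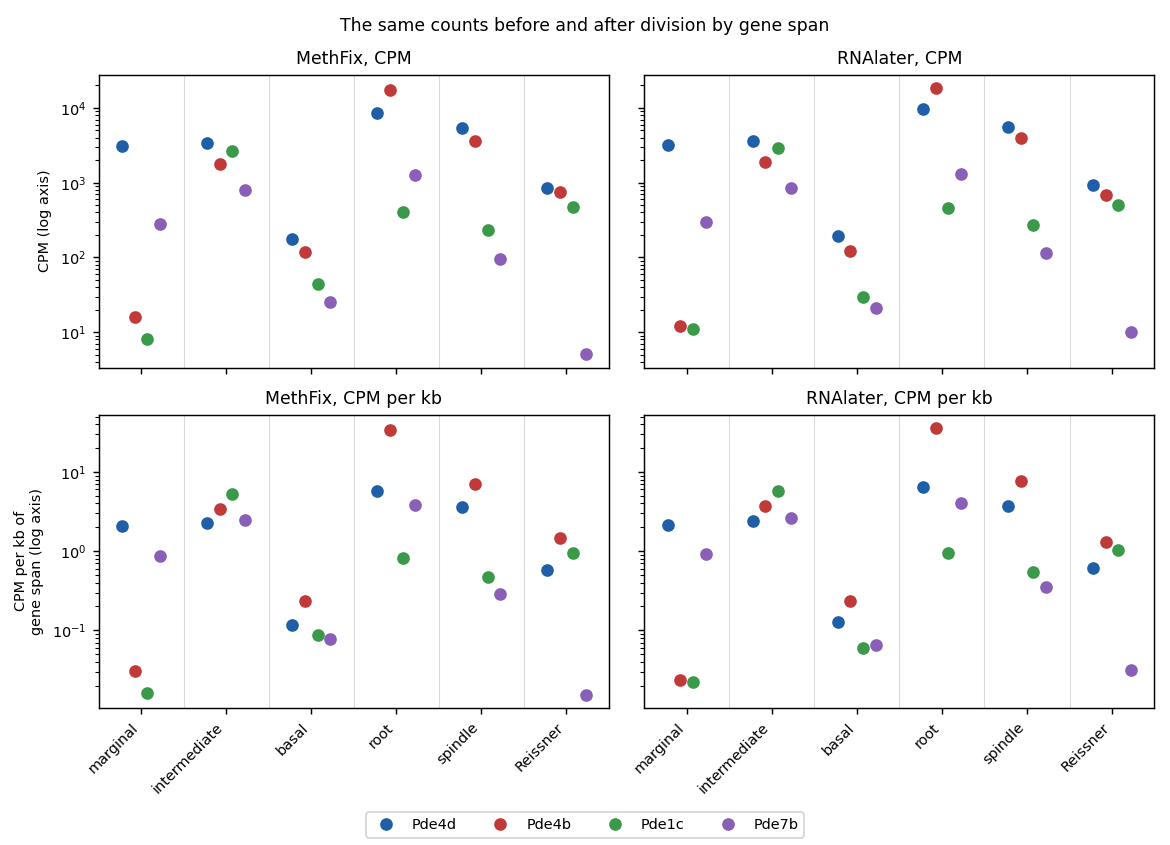
Levels of Pde4d, Pde4b, Pde1c and Pde7b in each class in CPM (top) and in CPM per kb of gene span (bottom), on log axes, with 1 column of panels per library and 1 point per gene. Pde4d leads intermediate-like, basal-like, spindle-like and Reissner's membrane-like nuclei in the first scale and gives way to Pde1c (intermediate-like) or Pde4b (the other 3) in the second, while Pde4d in marginal-like and Pde4b in root-like nuclei lead in both.

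To set each class against the others, the level of a gene in a class was divided by its level in the 5 other classes pooled, and a gene was called where this came to at least 4-fold in both libraries. The ratio was computed for 11006 genes with at least 50 UMIs in the 6 classes of each library. Among them were 6 of the 9 members (Pde1a, Pde3a and Pde8b had too few UMIs). Since the filter sums over the classes, a gene can pass it through the class where it is then called higher. Of 36 pairs of a class and a member, 3 were called higher and 9 lower. In root-like nuclei 1 member was called higher, Pde4b, 25.7-fold on average (log2 ratio 4.66 in MethFix, 4.60 to 4.71, and 4.71 in RNAlater, 4.66 to 4.77), where 2.60% of all genes were called. In intermediate-like nuclei 1 member was called higher, Pde1c, with 5.44 (5.30 to 5.57) and 5.31 (5.18 to 5.44), 41.5-fold, where 3.67% of all genes were called. In basal-like nuclei 1 member was called higher, Pde10a, with 4.00 (3.39 to 4.66) and 3.61 (3.02 to 4.23), 14.0-fold, where 4.87% of all genes were called. Pde10a passed the filter only through these nuclei, which held 106 and 108 of its UMIs, as the 5 other classes together held under 50. The Pde10a call was lost (mean log2 ratio 1.77) when unnamed clusters with root markers but no Slc26a4 UMI, which hold Pde10a themselves, were counted as root-like. No member was called higher in marginal-like, spindle-like or Reissner's membrane-like nuclei, against 4.75%, 2.38% and 2.69% of all genes.

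Genes that led by count were not always high relative to other classes. Pde4d, which led marginal-like nuclei, was not called there, and its mean log2 ratio was 1.81 in root-like and 1.05 in spindle-like nuclei. Pde4b in spindle-like nuclei had 1.92, Pde7b 1.92 in intermediate-like and 1.76 in root-like nuclei, all under the threshold of 2. Among the genes with too few UMIs, Pde8b in Reissner's membrane-like nuclei had a ratio of 5.23, 37.6-fold, and Pde3a in intermediate-like nuclei 4.69.

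The members called lower lay mainly in marginal-like and basal-like nuclei. In marginal-like nuclei 4 of the 6 were called lower, Pde1c at a mean log2 ratio of -7.28, Pde4b at -7.03, Pde5a at -4.15 and Pde10a at -3.59, against 10.2% of all genes called lower there. Pde10a passed the filter only through basal-like nuclei, and Pde5a only through intermediate-like nuclei (51 and 50 UMIs). Their lower calls in marginal-like nuclei follow in part from that filter, and both genes enter the median given below. In basal-like nuclei 4 of the 6 were called lower, Pde1c at -4.91, Pde7b at -4.43, Pde4d at -4.19 and Pde4b at -3.45, against 8.66%. In Reissner's membrane-like nuclei Pde7b was called lower at -5.87, against 5.50% of all genes. No member was called lower in intermediate-like, root-like or spindle-like nuclei, where 10.9%, 3.82% and 3.05% of all genes were. Pde7b in spindle-like nuclei (95.3 and 114 CPM) was at the threshold, past 4-fold lower in MethFix and just short of it in RNAlater. For Pde10a and Pde5a, root-like and spindle-like nuclei were too few for such a call. There 1 UMI already came to 3.81 to 5.17 CPM, and a count of 0 was set to 3, so the absence is no result for these genes. The median log2 ratio of the 6 members was -3.87 in marginal-like and -3.82 in basal-like nuclei, beside 0.02 and -0.18 over all genes, and 1.40 in intermediate-like nuclei, beside -0.13. In root-like nuclei it was 1.76 over the 5 members with a ratio, beside -0.17, in spindle-like nuclei -0.12, beside -0.11, and in Reissner's membrane-like nuclei -0.92, beside -0.27.

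**Figure D4:**
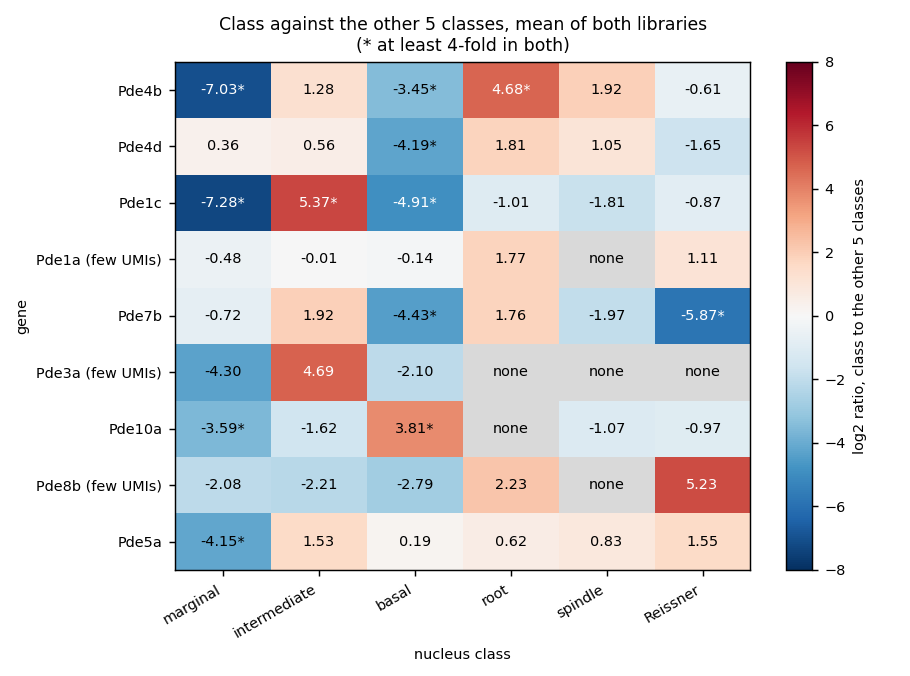
Heat map of the log2 ratio of each class (columns) to the 5 others pooled, as the mean of both libraries, for the 9 phosphodiesterases (rows), with an asterisk where it was at least 4-fold in both and grey where there was no ratio. Pde4b in root-like (4.68), Pde1c in intermediate-like (5.37) and Pde10a in basal-like nuclei (3.81) carry an asterisk on the higher side, and 4 members each do on the lower side in marginal-like and basal-like nuclei.

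Of the 15 other genes listed with a Pde symbol, 5 had enough UMIs for the ratio. Marginal-like nuclei had 2 called higher and 1 lower, where 4.75% and 10.2% of all genes were. Pde9a, a cGMP-specific enzyme, had a mean log2 ratio of 3.34 there, at 39.7 CPM in MethFix against 3.30 in the other classes, and Pde4a, another member of the cAMP-specific PDE4 group, had 2.71, at 86.0 against 13.5. Pde9a passed the filter only through marginal-like nuclei, as the other classes together held under 50 of its UMIs in MethFix. Intermediate-like nuclei had 1 called higher, Pde8a, a cAMP-specific enzyme related to Pde8b, at 3.09 (58.8 against 6.67 in MethFix), and 2 lower (3.67% and 10.9% of all genes). Basal-like nuclei had 1 lower (8.66%). Pde7a (57.9 to 146 CPM) and Pde6d (40.4 to 122) were found in all 6 classes, and the cone photoreceptor gene Pde6c had 0 UMIs in all of them.

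Other genes listed with cyclic nucleotide signalling were followed in a list of 87, of which 86 were found and 42 had enough UMIs. Beside genes that make, sense or export the messengers, the list holds receptor partners, anchoring proteins and transcription factors. In intermediate-like nuclei 7 were called higher and 7 lower, where 3.67% and 10.9% of all genes were. The highest ratios there were those of Adcy2, an adenylyl cyclase, at 6.81 (603 CPM against 5.88 in MethFix), Prkg1, the cGMP-dependent protein kinase, at 5.94 (2085 against 35.8), and Adcy8, a calcium-stimulated adenylyl cyclase, at 4.59 (46.7 against 2.22). In basal-like nuclei 5 were called higher and 5 lower (4.87% and 8.66% of all genes), led by Gucy1b1, a subunit of the soluble guanylyl cyclase, at 5.72 (41.3 against 0.672), Creb3l1, a transcription factor of the CREB3 group, at 4.60 (38.5 against 1.79), and Ramp2, a partner of the calcitonin receptor-like receptor, at 4.44 (43.7 against 2.02). In MethFix, Adcy2, Adcy8, Gucy1b1, Creb3l1 and Ramp2 had under 50 UMIs in the classes other than the one that called them. These genes passed the filter only through that class, so their calls follow in part from it.

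In marginal-like nuclei 2 of the 42 were called higher and 15 lower (4.75% and 10.2% of all genes), and the highest ratio was that of Abcc4, a transporter that exports cyclic nucleotides, at 2.68 (143 against 21.4). In spindle-like nuclei 1 was called higher and 4 lower (2.38% and 3.05% of all genes), and in Reissner's membrane-like nuclei 2 and 7 (2.69% and 5.50%). Akap12, an anchoring protein for protein kinase A, was higher in both, at 3.67 (198 against 16.4) and 2.55 (106 against 17.6), and Adcy3, an adenylyl cyclase, was at 2.04 in Reissner's membrane-like nuclei, from 9 and 14 UMIs. In root-like nuclei, where Pde4b was highest, none was called higher and 3 were called lower (2.60% and 3.82% of all genes). The median log2 ratio of the list lay farthest from that of all genes in Reissner's membrane-like nuclei, at -0.65 against -0.27.

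For each member, the genes with the most similar profile over 7 classes (the 6 and the bone cell-like nuclei) were sought among 7360 genes, by Pearson's correlation of log levels. These are descriptions over 7 points from the same libraries. Pde4b was closest to E130102H24Rik (r = 0.947) and Sdk1 (0.945), Pde4d to Nhs (0.968) and Herc3 (0.943), Pde1c to Ptpra (0.970) and Bcas3 (0.957), and Pde7b to Tiprl (0.941) and Specc1 (0.940). Among the low genes, Pde10a was closest to Tnfrsf11b (0.997) and Nav3 (0.992), Pde8b to Atp2b2 (0.988) and Nt5dc1 (0.978), Pde5a to Serpinb6a (0.987) and Ctif (0.978), Pde1a to Kcnb2 (0.994) and Rgs7bp (0.993), and Pde3a to Fam133b (0.970) and Sema5a (0.969). The profiles of Pde1a, Pde3a and Pde5a rested largely on 1 class. In MethFix they stood at 234, 131 and 263 CPM in bone cell-like nuclei, against at most 9.06, 12.1 and 25.2 in the 6 classes. The profile of Pde10a rested on bone cell-like nuclei as well as basal-like nuclei. In MethFix it stood at 234 CPM (168 to 318) in the former and at 50.3 (41.2 to 60.9) in the latter. In RNAlater the levels were 76.4 (38.1 to 137) and 49.0 (40.2 to 59.2), with overlapping intervals.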

How the data were processed

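The authors deposited raw UMI counts per gene and barcode for each library, made per the labels and methods with Cell Ranger 3.0.1 against GRCm38. The methods name default settings and a mouse genome supplied by 10x Genomics and do not mention introns. Barcodes with at least 200 genes, at most 8000 UMIs and at most 10% mitochondrial UMIs were kept, and Scrublet (scanpy 1.11.5, rate 0.1) removed 224 doublets from MethFix and 18 from RNAlater, leaving 3372 and 2311 nuclei. Clusters (leidenalg 0.10.2, resolution 1 and 1.5) were named by their mean log2 marker level, without the genes reported, and 239 and 76 nuclei stayed unnamed. Levels are CPM (counts per 1000000 UMIs), with UMIs summed per class, and a class at 0 was set to a floor of 3 counts in ratios. Thinning to 1000 UMIs left out 212 nuclei of the 6 classes in MethFix and 33 in RNAlater. Gene spans come from GENCODE M21, which matched 48349 features. The genes named are the 9 members, the first 3 genes called higher per class in each list, and the 2 most similar genes to each member. A few further genes (Pde7a, Pde6d, Pde6c) were named after their values were seen. The members and lists were chosen with earlier results of these data known. Scripts were tested on simulated data. Alternatives used edgeR 4.0.16 and DESeq2 1.42.0 for scaling only.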

Additional observations from a re-analysis of the deposited data

Results flagged for a closer look

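Clusters that the naming rule left unnamed, and that the comparisons therefore leave out, held some of the rarer phosphodiesterases above their level in all 6 classes. In MethFix a cluster of 38 nuclei led by Cdh6 and Tenm2 had Pde1a at 534 CPM, Pde3a at 244, Pde8b at 186 and Pde5a at 197. In RNAlater a cluster of 41 nuclei led by Kcnk2, Dcc, Tenm2 and Cdh6 had Pde1a at 433, Pde3a at 198, Pde8b at 144 and Pde5a at 175. Pde10a stood at 1525 in a MethFix cluster of 14 nuclei and at 1850 in an RNAlater cluster of 13 nuclei, both with Dgkb and Otog among their leading genes and without a UMI of Slc26a4. Otog is one of the root markers, and the rule gave the root-like name only to clusters with a UMI of Slc26a4. These counts sit in few nuclei: all unnamed nuclei of RNAlater together held 104 Pde10a UMIs in 4 of 76 nuclei, and those of MethFix 180 in 27 of 239. Pde10a also stood at 91.4 in a MethFix cluster of 104 nuclei led by Dnah12 and Dnah5 and at 444 in one of 75 nuclei led by Kcnd2, Fgf14 and Stab1. Of the unnamed nuclei, 111 of 239 in MethFix and 74 of 76 in RNAlater carried a barcode found in both matrices (none of the 104 nuclei of the cluster led by Dnah12), and no test was made.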

How the results depend on the processing

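No paired analysis was possible because each preservation method has 1 library and the result comes from no test. The same gene led in 135 of 136 leaders recomputed under alternatives with at least 10 nuclei in the class. The exception was Pde1c in the 11 RNAlater Reissner's membrane-like nuclei whose barcode was in RNAlater alone. These leaders were ranked by plain UMIs, so 1 of the alternatives, scaling without mitochondrial genes, could not change them. Most alternatives reused many of the same nuclei, in 2 libraries counted as 1 sample, so the 136 are not separate checks. The scales per kb are not among the 136. As log2 ratios of leader to second gene (MethFix, then RNAlater), dividing by gene span turned the order in intermediate-like (-1.22 and -1.27), basal-like (-0.97 and -0.88) and spindle-like nuclei (-0.97 and -1.06) and in Reissner's membrane-like nuclei (-1.34 and -1.08), and gave 1.25 and 1.21 in marginal-like and 2.57 and 2.48 in root-like nuclei. Dividing by exon length gave 1.12 and 1.06 in intermediate-like, 1.22 and 1.13 in root-like and 0.39 and 0.30 in spindle-like nuclei. For root-like nuclei the ratio was 0.84 and 0.73 without an upper limit on UMIs, 1.54 and 1.15 with classes set barcode by barcode, and 1.16 and 1.05 when root clusters without Slc26a4 counted as root (added after seeing the data). In MethFix, barcodes found in 1 matrix alone gave 3.25 in marginal-like, 0.62 in intermediate-like and 0.82 in spindle-like nuclei, and barcodes in both matrices gave 0.32 in intermediate-like nuclei. Members called higher rose from 3 to 6 with no upper limit on UMIs, to 5 with doublets kept and to 6 with no filter on low counts, and each time the 3 were among them. In barcodes of 1 matrix 2 were called, 1 of the 3 among them. That setting used MethFix alone and kept the filter of 50 UMIs, which fewer genes could pass. Its 4 root-like nuclei were given no value, so Pde4b could not be called there. Pde10a, with 20 UMIs in the basal-like nuclei, had too few UMIs for the filter. The share of all genes called in that setting is not given. Pde10a in basal-like nuclei was no longer called (1.77) when the root clusters without Slc26a4 were included. The 3 other phosphodiesterases called higher became 1 in barcodes of 1 matrix and 5 without the filter, and the 4 called lower became 1 in barcodes of 1 matrix. The 17 pathway genes called higher became 7 in barcodes of 1 matrix and 26 without the filter, and the 41 called lower became 21 in barcodes of 1 matrix. Apart from these limits of the setting with barcodes of 1 matrix, the causes were not tested. Under the alternatives, classes left with under 10 nuclei were given no value, and thinning moved 76 of 108 shares beyond their interval. Depth limits Pde1a, Pde3a, Pde8b and Pde5a, with 87 to 177 UMIs in the kept nuclei of a library.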

Other observations

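Classes with few nuclei held other combinations of the same genes. Bone cell-like nuclei (77 in MethFix, 52 in RNAlater) had Pde4d at 4967 and 6125 CPM, Pde7b at 1216 and 1479, Pde5a at 263 (192 to 350) and 354 (264 to 466) and Pde1a at 234 (168 to 318) and 250 (175 to 346). Both Pde5a and Pde1a were higher there than in any of the 6 main classes. Pde10a stood there at 234 (168 to 318) and 76.4 (38.1 to 137), from 41 UMIs in 9 nuclei and 11 UMIs in 8 nuclei. Fibrocyte-like nuclei (24 and 17) had Pde4b at 1593 and 1394. The 7 pericyte-like nuclei of MethFix had Pde7b at 1349, Pde3a at 1191 (666 to 1964, 15 UMIs), Pde8b at 1111 (608 to 1865, 14 UMIs) and Pde1a at 953 (492 to 1664, 12 UMIs), so that 3 genes near the limit of the depth in the main classes were found in 3 to 5 of these 7 nuclei. The 31 Schwann cell-like nuclei of RNAlater had Pde4d at 1947, from 80 UMIs in 8 nuclei, and Pde1c at 1509, from 62 UMIs in 3 nuclei.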
